A study of Mus musculus with 6 samples.

Results

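Genes of cholesterol synthesis and sterol regulation were examined in dorsal striatum of young mice, in 3 libraries from homozygous Lrrk2 G2019S knock-in animals and 3 from wild-type animals. The 28 genes were chosen by symbol, as enzymes of the mevalonate and sterol pathway and the proteins that sense, move, store or clear sterols, and all 28 were found among 23067 genes of the deposited table. Knock-in animals carried the changed allele on both copies of Lrrk2, and wild-type animals carried 2 unchanged copies. Tissue was taken at postnatal day 21, and the labels name no further treatment. Lrrk2 encodes a kinase, and the G2019S change is linked to Parkinson's disease. The allele sits in the endogenous gene, so it is present in all cells of the animal. The labels state neither the strain nor how many animals stand behind a library. A p-value here thus weighs a difference against library-to-library spread, some of which may be technical.

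Cholesterol is made from acetyl-CoA in a long chain of steps. Early enzymes build mevalonate and turn it into isoprenoid units, squalene synthase joins these units, and later enzymes close and trim the ring system. Brain makes its own cholesterol, because lipoproteins of the blood do not cross the blood-brain barrier, and most of it ends up in myelin. Mouse striatum is still being myelinated at this age. Transcription of the pathway is driven by the SREBP factors, which are held in the endoplasmic reticulum by SCAP and INSIG proteins while sterol is plentiful. SREBP factors bind sterol regulatory elements and act together with NF-Y, which binds the CCAAT box.

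Promoters are shown for 5 genes on which the results below turn, from RefSeq on GRCm38.p6, each 300 bases long with 250 bases before the annotated start and 50 after it. Hmgcs1 is the enzyme gene with the highest level, Mvk has the most CCAAT boxes, Msmo1 has 1 library far from the others, Dhcr7 has the smallest p, and Cyp46a1 has the highest level of all 28. Capitals mark CCAAT on either strand (written ATTGG on the other) and the element TCACNCCAC on either strand. The Hmgcs1 promoter lies on the plus strand at chr13:119690101-119690400, the Mvk promoter on the plus strand at chr5:114444019-114444318, the Msmo1 promoter on the minus strand at chr8:64733529-64733828, and the Cyp46a1 promoter on the plus strand at chr12:108334066-108334365. Dhcr7 has 3 annotated starts, and the one shown, the only one with a CCAAT box, lies on the plus strand at chr7:143829964-143830263.
Hmgcs1: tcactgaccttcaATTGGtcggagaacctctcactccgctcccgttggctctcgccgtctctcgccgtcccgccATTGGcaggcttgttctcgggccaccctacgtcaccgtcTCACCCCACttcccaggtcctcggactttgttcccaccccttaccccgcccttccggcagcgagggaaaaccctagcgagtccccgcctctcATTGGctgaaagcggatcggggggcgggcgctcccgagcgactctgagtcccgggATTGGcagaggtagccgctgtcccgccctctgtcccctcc
Mvk: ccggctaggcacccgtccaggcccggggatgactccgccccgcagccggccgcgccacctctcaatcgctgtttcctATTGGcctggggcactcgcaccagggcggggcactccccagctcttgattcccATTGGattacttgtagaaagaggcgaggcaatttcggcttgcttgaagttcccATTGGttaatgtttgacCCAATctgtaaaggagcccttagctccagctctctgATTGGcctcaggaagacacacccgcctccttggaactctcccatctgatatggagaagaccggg
Msmo1: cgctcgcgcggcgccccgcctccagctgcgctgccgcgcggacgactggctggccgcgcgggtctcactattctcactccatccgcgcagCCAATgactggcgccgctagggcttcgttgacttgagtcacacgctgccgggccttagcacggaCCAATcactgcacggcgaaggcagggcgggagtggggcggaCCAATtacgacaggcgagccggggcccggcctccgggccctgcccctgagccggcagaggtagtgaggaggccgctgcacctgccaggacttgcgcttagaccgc
Dhcr7: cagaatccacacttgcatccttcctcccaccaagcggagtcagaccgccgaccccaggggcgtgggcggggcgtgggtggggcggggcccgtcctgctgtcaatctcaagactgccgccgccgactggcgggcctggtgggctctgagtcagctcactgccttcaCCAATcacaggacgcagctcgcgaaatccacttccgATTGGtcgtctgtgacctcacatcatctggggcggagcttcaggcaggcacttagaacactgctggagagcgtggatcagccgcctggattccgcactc
Cyp46a1: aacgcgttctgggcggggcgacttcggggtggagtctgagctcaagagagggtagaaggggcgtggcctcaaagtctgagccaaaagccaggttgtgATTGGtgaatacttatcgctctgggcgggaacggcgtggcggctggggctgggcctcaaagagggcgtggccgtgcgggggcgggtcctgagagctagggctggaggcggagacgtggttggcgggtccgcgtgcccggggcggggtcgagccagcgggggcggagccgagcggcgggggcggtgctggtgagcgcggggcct

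A promoter was listed for 23 of the 28 genes, and Fdps, Fdft1, Sqle, Stard4 and Abcg1 had none in that table. CCAAT on either strand was present in at least 1 promoter of 20 of the 23 (87.0%) and of 14 of the 15 enzymes with a promoter (93.3%). The same letters were found for 43.0% of the 9622 genes tested below that had a promoter, and in 37.4% of all 32851 promoters. Mvk held 5 such boxes, and Hmgcs1 and Nsdhl held 4 each. The element TCACNCCAC occurred in the window of 1 of the 23 genes (4.35%), against 1.42% of the 9622 genes tested and 1.24% of all promoters. That gene was Hmgcs1, with the first base of the element 137 bases before the start. The 2 motifs share no bases there. These matches describe letters in a window, other forms of the element were not searched, and no binding was measured.

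Some facts of the libraries bear on every value. FPKM, in which reads are divided by transcript length and by the size of the library, summed to between 324300 and 335508 in knock-in libraries and between 314146 and 323715 in wild-type libraries. The labelled tissue was checked by 10 markers of striatal projection neurons, all tested, with summed levels of 2763 to 3063 FPKM in knock-in and 2769 to 2894 FPKM in wild type. Knock-in replicate 3 stood apart: mitochondrially encoded genes took 23.2% of its summed FPKM, against 18.0% to 20.5% in the other libraries, and it was the lowest library for 32.0% of all genes tested. Markers of cortical excitatory neurons, of which 6 of 10 were tested, summed to 101, 90.4 and 56.2 FPKM in knock-in replicates 1 to 3 and to 73.1, 53.9 and 53.6 FPKM in wild-type replicates 1 to 3. All samples are titled male, yet Xist, the RNA of the inactive X chromosome, stood at 27.2 to 39.3 FPKM in knock-in and 31.4 to 33.0 FPKM in wild type, which goes against that label in all 6 libraries. Lrrk2 itself stood at 11.3 to 12.4 FPKM in knock-in and 10.9 to 12.0 FPKM in wild type, and as the allele is a point change its level does not check the genotype labels. Of the 28 genes, Nsdhl and Ebp lie on chromosome X.

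Levels of the 28 genes spanned from 2.65 FPKM for Soat1 to 144 FPKM for Cyp46a1, as means over the 6 libraries. Cyp46a1, the neuronal hydroxylase that turns cholesterol into a form that can leave the brain, measured 149, 151 and 140 FPKM in knock-in replicates 1 to 3 and 145, 138 and 139 FPKM in wild-type replicates 1 to 3. The genotypes overlapped, with a log2 difference of 0.06 (SE 0.06). Next came Hmgcs1, the cytosolic synthase that feeds the mevalonate route, with a mean of 101 FPKM, and Srebf2, the SREBP gene that mainly drives sterol synthesis, with 43.5 FPKM. Fdft1, squalene synthase, followed at 30.8 FPKM and Cyp51, the lanosterol demethylase, at 24.0 FPKM. At the low end lay Hsd17b7 at 4.26 FPKM, Stard4 at 4.13 FPKM, Abca1 at 3.47 FPKM and Soat1. FPKM is scaled for length, so levels may be compared between genes, though only roughly. Of the 28 genes, 9 share exon bases with another gene, among them Hmgcs1, Fdft1 and Cyp51. Neighbours in this order such as Hsd17b7 and Stard4 differed by less than their spread over libraries.

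**Figure D1:**
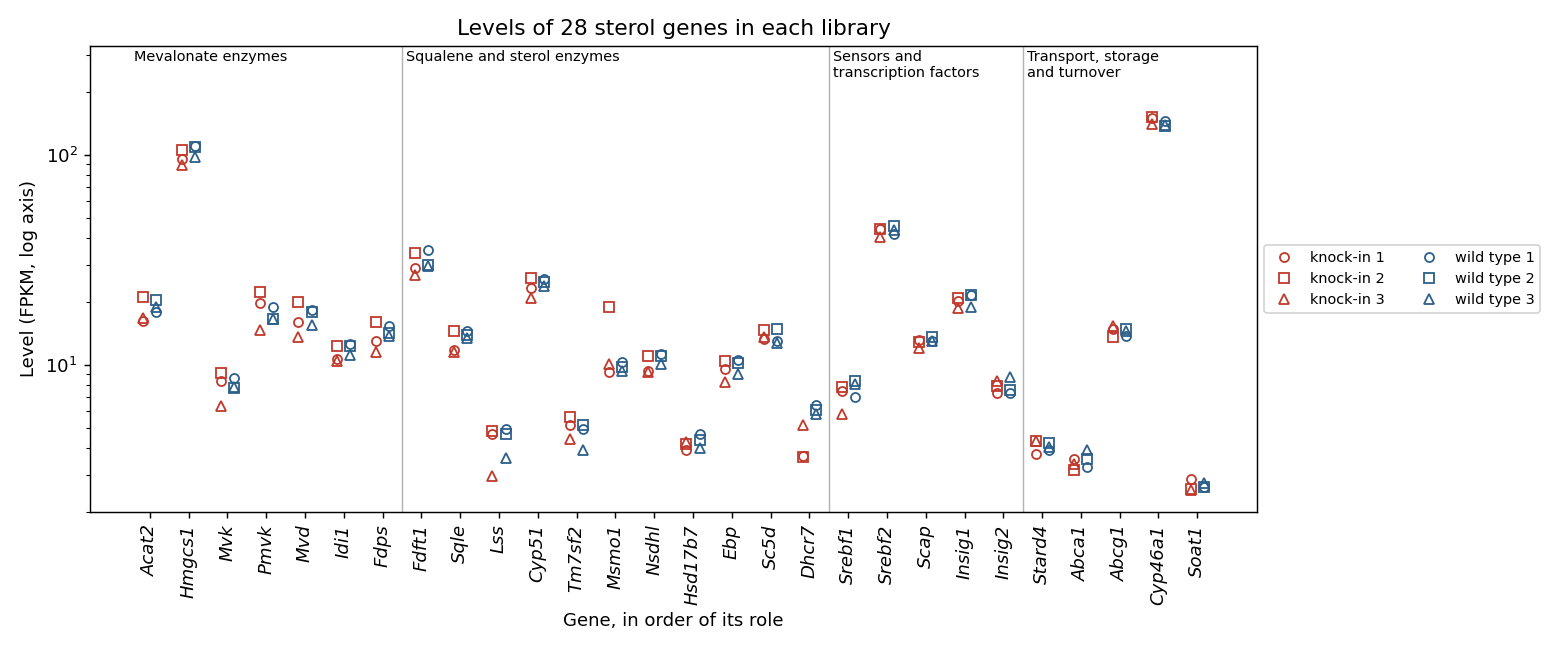
Level of each of the 28 sterol genes in each library, as FPKM on a log axis, with genes in order of their role, knock-in libraries in red on the left of each pair and wild-type libraries in blue on the right. Points of both genotypes interleave for 27 genes, and for Dhcr7 the 3 knock-in points lie below the 3 wild-type points.

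The comparison of genotypes asked which of these genes differed in knock-in striatum. None of the 28 was called by limma, a linear model fitted to log2(FPKM + 1) of every gene, at an adjusted p under 0.05. All 28 were among the 14156 genes tested, those with a mean of at least 1 FPKM. The background was 0.0212% of genes called, 0.0141% higher and 0.00706% lower in knock-in. These were 3 genes, Chrm1 and Gm42715 higher and Mapkap1 lower, named here after their values were seen. The number of genes called over the whole table was 11, 14 and 6 without knock-in replicates 1, 2 and 3 and 8 without wild-type replicate 2, and 3 without wild-type replicate 1 or 3. In each of these fits 0 sterol genes were called. At an unadjusted p under 0.05, 1 of 28 sterol genes passed, lower in knock-in, against 3.02% of all genes tested in that direction, 1.25% in the other and 4.27% in either. The groups did not overlap for 1 of 28 genes, again Dhcr7, lower in knock-in, against 6.58% of all genes lower without overlap, 2.92% higher and 9.51% in either direction.

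In size the differences were small. Of the 28 log2 differences, 21 were negative and 7 positive, where 56.4% of all genes tested were negative, and 19 of the 28 were negative under either other scaling. The adjusted p in limma was at least 0.997 for all 28. The median difference was -0.06, beside -0.01 over all genes tested. It depended on single libraries of both genotypes, being -0.01 when knock-in replicate 3 was left out and -0.10 when replicate 2 was. Leaving out wild-type replicate 1, 2 or 3 gave -0.03, -0.04 and -0.10. A log2 difference within 0.15 of 0 was found for 26 of the 28 and for 85.8% of all genes tested. The 95% interval of the fold on FPKM + 1 lay within 1.5-fold in both directions for 26 of the 28, the exceptions being Dhcr7 and Msmo1. For these 26 genes a change of FPKM + 1 beyond 1.5-fold lay outside the interval. For low genes the same interval allows a larger fold of FPKM itself. Smaller changes are not resolved with 3 libraries a genotype.

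**Figure D2:**
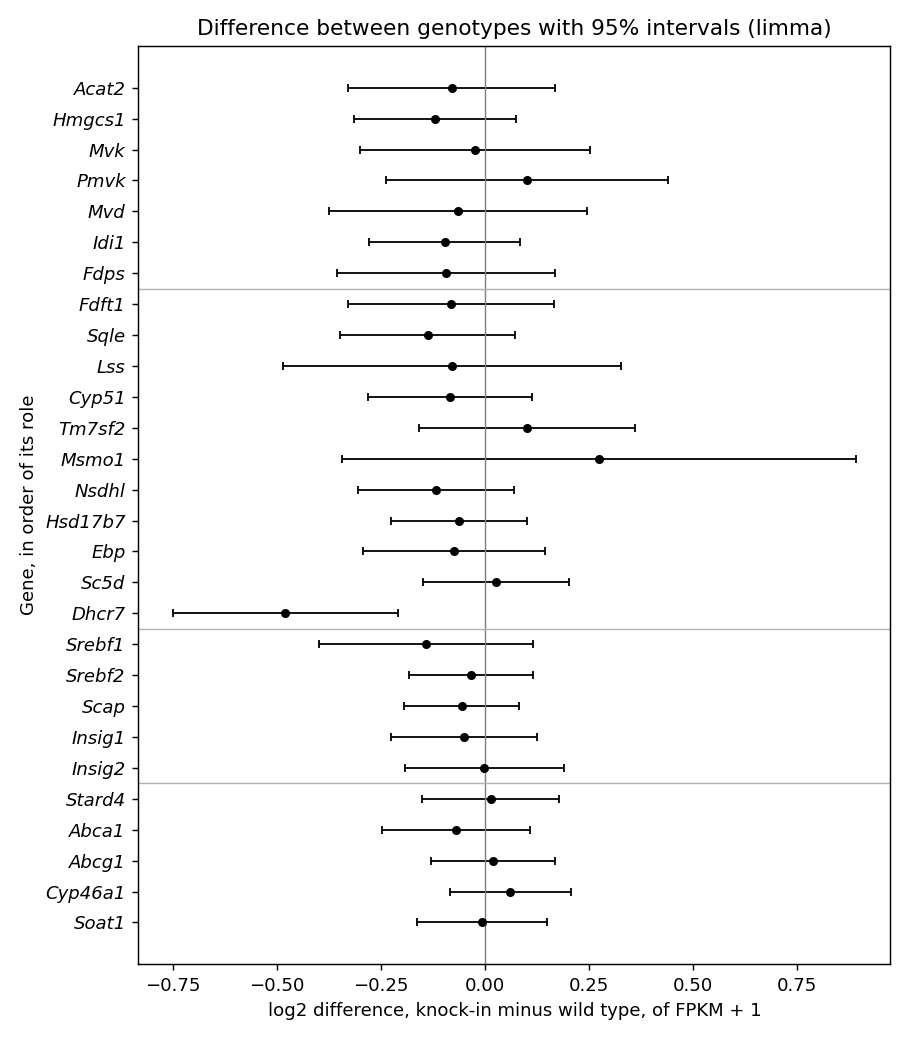
Log2 difference of FPKM + 1, knock-in minus wild type, for each of the 28 genes in order of their role, with points for the limma estimate and bars for its 95% interval (n = 3 libraries a genotype). The interval of Dhcr7 lies wholly below 0, and that of Msmo1 is the widest, from -0.34 to 0.89.

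The 7 enzymes of the mevalonate stage gave 1 positive and 6 negative differences, with a median of -0.08, and 0 were called. Hmgcs1 measured 95.4, 106 and 89.6 FPKM in knock-in replicates 1 to 3 and 110, 108 and 97.5 FPKM in wild-type replicates 1 to 3. Knock-in replicate 2 lay within the wild-type range and the other knock-in libraries below it. Its log2 difference was -0.12 (SE 0.08, adjusted p = 0.997 in limma), with an interval of the fold from 0.804 to 1.05. Idi1, the isomerase that balances the isoprenoid units, measured 10.7, 12.3 and 10.5 FPKM in knock-in and 12.5, 12.3 and 11.2 FPKM in wild type, again with knock-in replicate 2 inside the wild-type range. Its difference was -0.10 (SE 0.08). Hmgcs1 shares 557 exon bases and Idi1 323 with an annotated gene on the other strand, and though the labels name a stranded run, no source states the strand setting of the counting.

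The other mevalonate enzymes spread more between knock-in libraries than between wild-type libraries. Pmvk, which adds the second phosphate to mevalonate, had the only positive difference, 0.10, and ranged from 14.7 to 22.3 FPKM in knock-in and from 16.5 to 18.9 FPKM in wild type. Mvk, the kinase before it, ranged from 6.39 to 9.18 FPKM in knock-in and from 7.80 to 8.62 FPKM in wild type. Mvd, the decarboxylase after both, ranged from 13.6 to 19.8 FPKM in knock-in and from 15.4 to 18.2 FPKM in wild type. Knock-in replicates 2 and 3 set both ends of these knock-in ranges. The coefficient of variation was 20.5% for Pmvk, 18.0% for Mvk and 19.1% for Mvd in knock-in, against 8.03%, 5.89% and 8.76% for the same genes in wild type. Fdps, which makes farnesyl pyrophosphate, ranged from 11.5 to 16.0 FPKM in knock-in and from 13.7 to 15.3 FPKM in wild type. It shares 1124 exon bases with Gm43738 on the same strand, so reads could be assigned to either. Acat2, the thiolase of the first step, averaged 18.0 ± 2.74 FPKM in knock-in and 19.0 ± 1.30 FPKM in wild type (SD, n = 3 each). In each of these genes the highest library was knock-in replicate 2, and in each but Acat2 the lowest was knock-in replicate 3. Of all genes tested, 24.7% were highest in knock-in replicate 2 and 32.0% lowest in knock-in replicate 3.

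Among the 11 enzymes from squalene onward, 8 differences were negative and 3 positive, with a median of -0.08, and 0 were called. Dhcr7, the reductase that makes cholesterol in the last step of its branch, measured 3.67, 3.63 and 5.16 FPKM in knock-in replicates 1 to 3 and 6.43, 6.13 and 5.82 FPKM in wild-type replicates 1 to 3. All knock-in libraries were lower than all wild-type libraries, and knock-in replicates 1 and 2 were close together and well under replicate 3. The means were 4.15 ± 0.875 FPKM in knock-in and 6.12 ± 0.307 FPKM in wild type (SD, n = 3 each), a ratio of 0.678. The log2 difference was -0.48 (SE 0.12, unadjusted p = 0.00383, adjusted p = 0.997 in limma), so it was not called. It was not called in any alternative either. Without knock-in replicate 3 the difference was -0.62 with an adjusted p of 0.0914, and over the other fits that left out 1 library it lay between -0.51 and -0.41. Dhcr7 has 13 annotated transcripts on chromosome 7 and shares no exon bases with another gene, in GENCODE M21.

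Msmo1, which removes methyl groups from the sterol ring, measured 9.20, 18.9 and 10.1 FPKM in knock-in replicates 1 to 3 and 10.3, 9.81 and 9.34 FPKM in wild-type replicates 1 to 3. One library, knock-in replicate 2, stood far above the other 5, which lay close together. The log2 difference was 0.28 (SE 0.25), and without knock-in replicate 2 it was -0.02, so that 1 library set the difference.

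The steps between squalene and lanosterol did not separate the genotypes. Sqle, the epoxidase that opens the sterol branch, measured 11.8, 14.5 and 11.6 FPKM in knock-in and 14.5, 13.9 and 13.4 FPKM in wild type, with replicate 2 of the knock-in at the top of the range and the others below all wild-type libraries. Its difference was -0.14 (SE 0.09), the second smallest p of the 28 at an unadjusted 0.168. Lss, the cyclase that forms lanosterol, ranged from 2.96 to 4.83 FPKM in knock-in and from 3.59 to 4.93 FPKM in wild type. Fdft1, the squalene synthase before them, measured 28.9, 34.1 and 26.7 FPKM in knock-in and 35.2, 30.0 and 29.7 FPKM in wild type, a difference of -0.08 (SE 0.11). It shares 774 exon bases with Ctsb on the other strand.

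Of the enzymes that trim lanosterol, Cyp51 measured 23.1, 26.0 and 20.9 FPKM in knock-in and 25.6, 24.9 and 23.7 FPKM in wild type, a difference of -0.08 (SE 0.08). Nsdhl, the dehydrogenase that works beside Msmo1, measured 9.32, 11.0 and 9.29 FPKM in knock-in and 11.2, 11.0 and 10.1 FPKM in wild type, a difference of -0.12 (SE 0.08). For both genes knock-in replicates 1 and 3 were below all wild-type libraries and replicate 2 was not. Tm7sf2, a sterol reductase, measured 5.20, 5.65 and 4.43 FPKM in knock-in and 4.98, 5.16 and 3.92 FPKM in wild type, a difference of 0.10 (SE 0.11), and it shares 532 exon bases with Vps51 on the same strand. Ebp, the isomerase, had a difference of -0.07, Hsd17b7, the ketoreductase, one of -0.06, and Sc5d, the desaturase before Dhcr7, one of 0.03. Lss shares 381 exon bases and Cyp51 166 with a gene on the other strand.

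Next came the genes that sense sterol and drive transcription of the pathway. All 5 differences among Srebf1, Srebf2, Scap, Insig1 and Insig2 were negative, with a median of -0.05, and 0 were called. The median was -0.02 without knock-in replicate 3 or without wild-type replicate 2. Under median-of-ratios scaling and quantile normalization Insig2 turned positive, at 0.02 and 0.01. Srebf2 measured 44.2, 44.1 and 40.5 FPKM in knock-in and 42.1, 45.7 and 44.1 FPKM in wild type, with only knock-in replicate 3 outside the wild-type range. Srebf1, the SREBP gene tied more to fatty acid synthesis, measured 7.50, 7.82 and 5.84 FPKM in knock-in and 7.05, 8.39 and 8.11 FPKM in wild type, a difference of -0.14 (SE 0.11), again with knock-in replicate 3 the lowest. Leaving out that library brought the Srebf1 difference to -0.03, and over the other fits that left out 1 library it lay between -0.21 and -0.10. Scap, the escort of the SREBP factors, measured 13.1, 12.8 and 12.0 FPKM in knock-in and 13.0, 13.6 and 12.9 FPKM in wild type. Insig1, a retention factor that SREBP itself induces, averaged 19.9 ± 1.06 FPKM in knock-in and 20.6 ± 1.60 FPKM in wild type (SD, n = 3 each). Insig2, its paralogue, averaged 7.88 ± 0.542 FPKM in knock-in and 7.90 ± 0.769 FPKM in wild type. Knock-in replicate 3 was the lowest library for 4 of these 5 genes, all but Insig2, and for 32.0% of all genes tested. Scap shares 985 exon bases and Srebf1 109 with a gene on the other strand. For Srebf2 the interval of the fold ran from 0.881 to 1.08 and for Scap from 0.874 to 1.06.

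Genes that move, store or clear sterol gave 3 positive and 2 negative differences, with a median of 0.01, and 0 were called. That median turned to -0.01 without knock-in replicate 3 or wild-type replicate 1. Abca1, the transporter that loads cholesterol onto apolipoproteins, measured 3.54, 3.16 and 3.38 FPKM in knock-in and 3.26, 3.56 and 3.92 FPKM in wild type, a difference of -0.07 (SE 0.08). Abcg1, which exports sterol to lipoprotein particles, averaged 14.5 ± 0.846 FPKM in knock-in and 14.3 ± 0.542 FPKM in wild type (SD, n = 3 each). Stard4, a carrier of sterol between membranes, and Soat1, the enzyme that esterifies cholesterol for storage, had differences of 0.01 and -0.01. Their signs and that of Abcg1 turned on leaving out single libraries. In none of the 5 did the genotypes separate, and knock-in replicate 3 was the lowest library for 1 of them, Soat1.

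The enzymes differed between libraries of the same genotype, largely together. The summed level of the 18 synthesis enzymes was 302, 354 and 280 FPKM in knock-in replicates 1 to 3 and 343, 332 and 306 FPKM in wild-type replicates 1 to 3. The highest and the lowest sum were thus both knock-in libraries. Of the 18 enzymes, 17 had their highest level in knock-in replicate 2 (9) or wild-type replicate 1 (8), where 39.8% of all genes tested had theirs. Knock-in replicate 3 lay below all wild-type libraries for 14 of the 18 enzymes (77.8%), against 41.3% of all genes tested. Knock-in replicate 2 lay above all wild-type libraries for 9 of the 18 (50.0%), against 31.7% of all genes. The enzymes were chosen as 1 pathway, so these counts describe genes that share a library and are not separate pieces of evidence.

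**Figure D3:**
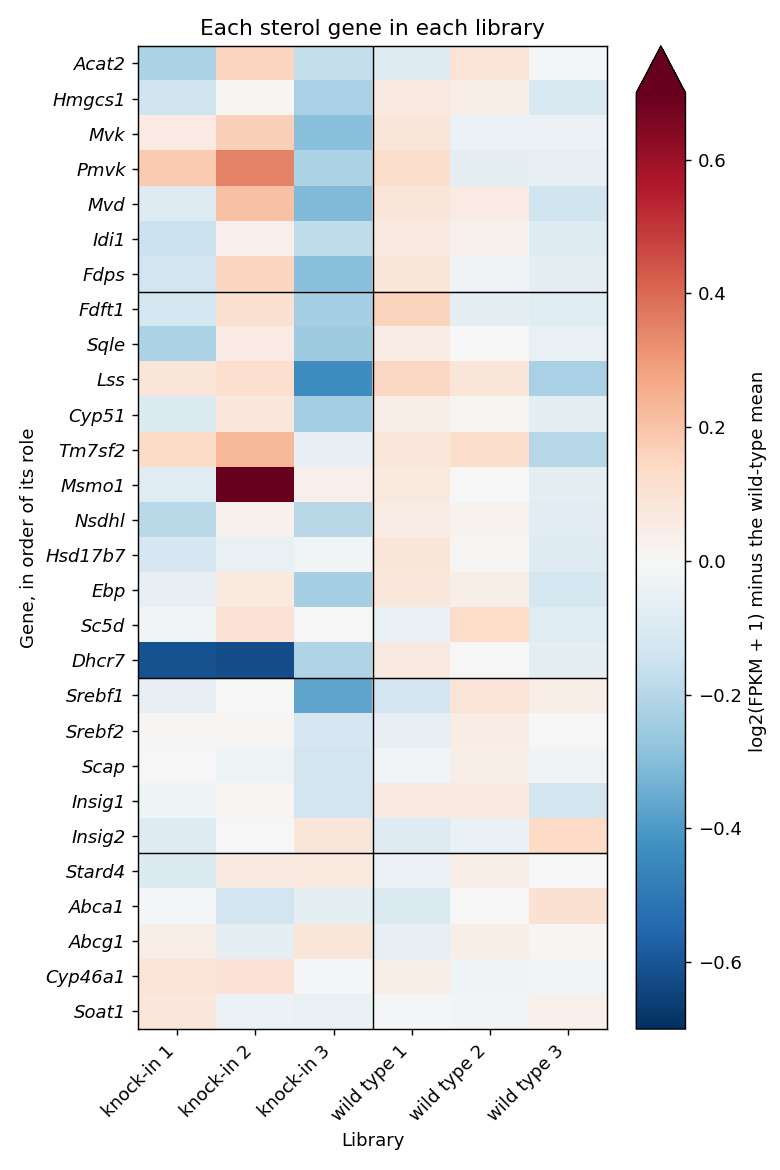
Each of the 28 genes (rows, in order of their role) in each library (columns, knock-in left of the line and wild type right of it), coloured by log2(FPKM + 1) minus the wild-type mean of that gene. Enzyme rows are mostly red in knock-in replicate 2 and blue in knock-in replicate 3, Dhcr7 is blue in all 3 knock-in libraries, and Msmo1 exceeds the colour scale in knock-in replicate 2.

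With each gene set against its own wild-type mean on the log2 scale, the median over the 7 mevalonate enzymes was -0.14, 0.15 and -0.23 in knock-in replicates 1 to 3, and 0.09, 0.03 and -0.06 in wild-type replicates 1 to 3. For the 11 later enzymes it was -0.09, 0.07 and -0.21 in knock-in and 0.07, 0.01 and -0.08 in wild type. The 2 stages thus ranked the libraries alike. Between genotypes, the median difference of the mevalonate enzymes was 0.01 once knock-in replicate 3 was left out and -0.18 once replicate 2 was left out instead. For the later enzymes these values were -0.01 and -0.16. Wild-type libraries moved it as well. Leaving out wild-type replicate 1, 2 or 3 gave medians of -0.05, -0.05 and -0.13 for the mevalonate enzymes, and of -0.02, -0.06 and -0.12 for the later enzymes. The size of the group difference in the enzymes therefore varied with the libraries included. The number of negative differences among the 28 genes was 16 in the fit that left out knock-in replicate 3 and 24 in the fit that left out knock-in replicate 2.

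Most cholesterol made in brain at this age goes to myelin, so the enzymes were set beside 20 genes of myelinating oligodendrocytes, a list chosen, like the others here, with earlier results known. The summed level of these myelin genes was 3804, 4007 and 3241 FPKM in knock-in replicates 1 to 3 and 4421, 4549 and 3970 FPKM in wild-type replicates 1 to 3. In bulk tissue, fewer cells of a type and less RNA per cell cannot be told apart. Of the 20 genes, 19 differences were negative and 1 positive, with a median of -0.21, and 0 were called. Over all genes tested 56.4% were negative. An unadjusted p under 0.05 was reached by 6 of the 20, all lower in knock-in, against 3.02% of all genes lower. The groups did not overlap for 4 of the 20, lower in knock-in, against 6.58% of all genes. The 20 genes were chosen as markers of 1 cell type, so these counts too are not separate pieces of evidence. Ugt8a, which makes the myelin lipid galactocerebroside, measured 42.7, 48.6 and 41.7 FPKM in knock-in and 52.3, 55.1 and 50.0 FPKM in wild type, with no overlap. Tspan2, a myelin tetraspanin, and Myrf, the transcription factor of myelination, had differences of -0.16 and -0.26. Without knock-in replicate 3 the median over the 20 genes was -0.11. Over the other fits that left out 1 library it lay between -0.28 and -0.16.

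Both sums were lowest in knock-in replicate 3 and next lowest in knock-in replicate 1. They parted at the top, where knock-in replicate 2 had the highest enzyme sum and wild-type replicate 2 the highest myelin sum. All 20 myelin genes and 12 of the 18 enzymes were lowest in knock-in replicate 3, as were 32.0% of all genes tested. Relative to the myelin sum, the enzyme sum was 7.94%, 8.84% and 8.65% in knock-in replicates 1 to 3 and 7.75%, 7.31% and 7.71% in wild-type replicates 1 to 3. These shares did not overlap between genotypes, and no test was made of this ratio of chosen lists. The separation was not particular to the enzymes. Microglia genes summed to 330.4, 338.3 and 305.2 FPKM in knock-in and to 337.9, 323.5 and 321.3 FPKM in wild type. Relative to the myelin sum, these and the projection neuron sums did not overlap between genotypes either, while astrocyte and precursor sums did. On the log2 scale, the enzyme median minus the myelin median was 0.0381, 0.193 and 0.174 in knock-in replicates 1 to 3. In wild-type replicates 1 to 3 it was 0.0373, -0.0613 and 0.0321, so replicates 1 of both genotypes were nearly equal. Set against 14 genes of oligodendrocyte precursors, the enzyme sum was 102%, 111% and 121% in knock-in and 106%, 98.5% and 102% in wild type, which overlapped. Set against 10 astrocyte genes, it was 46.5%, 57.8% and 48.7% in knock-in and 53.5%, 53.5% and 49.0% in wild type, which overlapped as well.

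**Figure D4:**
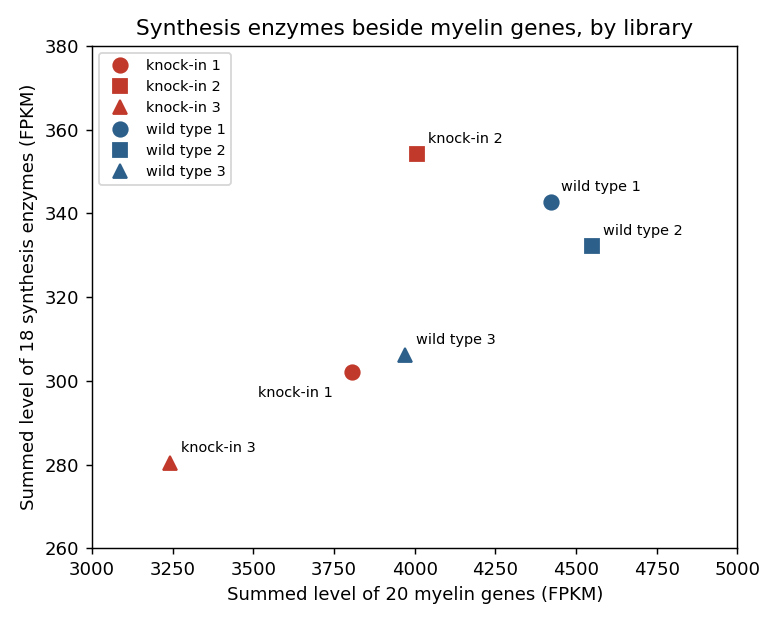
Summed level of the 18 synthesis enzymes against the summed level of 20 myelin genes (both in FPKM; axes do not start at 0), 1 point a library, knock-in in red and wild type in blue. Knock-in replicate 3 is lowest on both axes, and knock-in replicate 2 has the highest enzyme sum with a myelin sum below those of wild-type replicates 1 and 2.

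Other cell type lists gave the following medians relative to the wild-type mean. Astrocyte genes stood at 0.01, -0.02 and -0.13 in knock-in replicates 1 to 3 and between -0.02 and 0.02 in wild type. Microglia genes stood at 0.03, 0.05 and -0.17 in knock-in and within 0.04 of 0 in wild type. Oligodendrocyte precursor genes stood at -0.12, -0.07 and -0.37 in knock-in and between -0.02 and 0.04 in wild type. Each of these 3 lists was lowest in the library where the enzymes were lowest, and blood genes stood at -0.82 there, while projection neuron genes were highest in it, at 0.15. Endothelial genes were lowest there too, at -0.15, and mitochondrially encoded genes stood at 0.40. Ependymal genes, of which 9 of 10 were tested, summed to 22.3, 34.0 and 24.0 FPKM in knock-in and to between 32.7 and 38.0 FPKM in wild type. The part of any of these cell types in the levels of the enzymes was not tested.

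**Figure D5:**
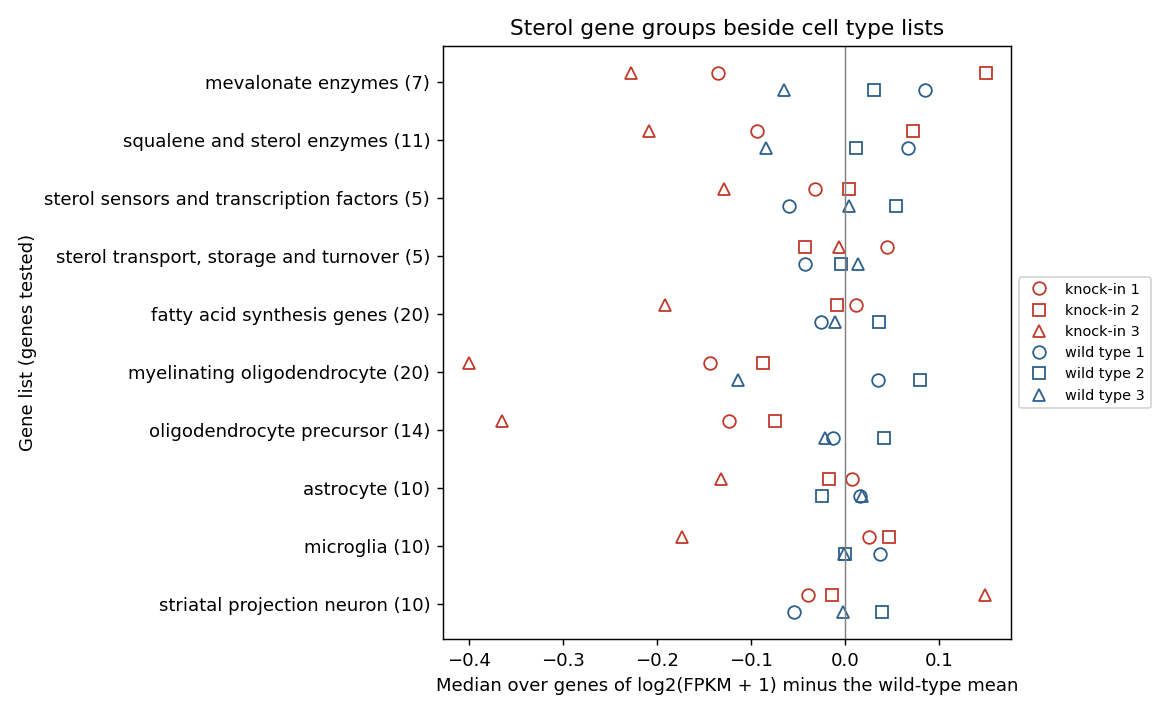
Median over genes of log2(FPKM + 1) minus the wild-type mean, for the 4 groups of sterol genes, the fatty acid genes and 5 cell type lists, with 1 point a library, knock-in in red above wild type in blue. Knock-in replicate 3 (red triangles) is the lowest point in the enzyme, sensor, fatty acid, oligodendrocyte, precursor, astrocyte and microglia rows and the highest in the projection neuron row.

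The rest of the sterol pathway was read from a second list, of uptake, export, oxysterol and feedback genes, of which 42 of the 45 in the table were tested. Differences were negative for 29 and positive for 13, with a median of -0.05, and 0 were called, 0 also passing an unadjusted p under 0.05. Their median was -0.03 without knock-in replicate 3. Hsd3b7, a dehydrogenase of bile acid synthesis, measured 1.09, 0.972 and 1.69 FPKM in knock-in and 0.827, 1.05 and 0.645 FPKM in wild type. Gramd1a, a sterol carrier at membrane contacts, measured 16.3, 18.1 and 16.1 FPKM in knock-in and 18.9, 24.1 and 17.6 FPKM in wild type. Cyp27a1, the mitochondrial sterol hydroxylase, measured 4.28, 4.51 and 3.76 FPKM in knock-in and 4.83, 4.89 and 4.49 FPKM in wild type. The genotypes overlapped in all 3 genes.

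Fatty acid synthesis is driven by the same family of factors, and 20 of its 22 listed genes were tested. Differences were negative for 13 and positive for 7, with a median of -0.05, and 0 were called. An unadjusted p under 0.05 was reached by 2 of the 20, both lower in knock-in, against 3.02% of all genes lower. The groups did not overlap for 2 of the 20, lower in knock-in, against 6.58% of all genes. The median turned to 0.02 when knock-in replicate 3 was left out and was -0.11 when replicate 1 was. Fasn, fatty acid synthase, measured 27.9, 25.4 and 24.1 FPKM in knock-in and 28.6, 32.7 and 31.8 FPKM in wild type, with no overlap and a difference of -0.26 (SE 0.08, unadjusted p = 0.0126, adjusted p = 0.997 in limma). Elovl7, an elongase, measured 7.15, 7.93 and 7.16 FPKM in knock-in and 8.73, 9.23 and 8.49 FPKM in wild type, also with no overlap and a difference of -0.22 (SE 0.06, unadjusted p = 0.00988, adjusted p = 0.997 in limma). Scd2, the main desaturase of brain, was the most abundant at 369, 363 and 317 FPKM in knock-in and 351, 387 and 359 FPKM in wild type. Scd3 measured 4.11, 0.846 and 0.814 FPKM in knock-in and 3.70, 4.56 and 3.74 FPKM in wild type, so knock-in replicate 1 lay with the wild-type libraries. Without that library Scd3 was called, at -1.45 (adjusted p = 0.0107 in limma), and with all 6 libraries it was not. The Scd genes are close copies of each other, so reads could be assigned to any of them and the level of Scd3 is uncertain.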

How the data were processed

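Bulk RNA sequencing of dorsal striatum gave 1 library for each of 6 samples, 3 knock-in and 3 wild type, and each column was matched to its sample through the code that the label and the header share. The deposited values are FPKM, per the file headers, with 1 value per gene and library and no pooled column. The submitters' processing notes list StringTie, SAMtools, HISAT2 and FastQC without versions or roles. They name no build, annotation or strand setting, which stay unknown here. A miRNeasy kit was used for RNA and a TruSeq kit for libraries, per the labels' protocols, and a label names a stranded run.

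The table held 0 values at 0. Steps that whole reads would leave among low values were looked for in 7944 genes with 1 annotated transcript. Multiples within 0.1 of a whole number made up 35.9% to 39.9% of values, against 22.4% to 24.4% with lengths shuffled, so reads were not recovered and the depth of each library is unknown.

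The 14156 genes averaging 1 FPKM or more over the libraries were tested as log2(FPKM + 1), a scale that understates changes of low genes. The test was two-sided in limma 3.58.1 (R 4.3.3), robust and with a variance trend on level, with Benjamini-Hochberg adjustment over all genes tested, called at an adjusted p under 0.05. The script was tested on simulated data. Alternatives were a pseudocount of 0.1, no filter, a minimum mean of 5 FPKM, median-of-ratios scaling, quantile normalization, a replicate block and leaving out each library. The members and lists were chosen with earlier results of these data known, so no p was adjusted over a list alone. Values in every library are given for the 12 members with the smallest p and the 4 with the highest mean, and any gene named of another list is among the 4 with the smallest p or is the most abundant. Not every such gene is reported here. Positions and overlaps are from GENCODE M21 on GRCm38, matched by gene identifier for all 28 members, and may differ from the authors' annotation. Promoters are from RefSeq.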

Additional observations from a re-analysis of the deposited data

How the results depend on the processing

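No sterol gene was called under any alternative, including those that left out 1 library, and 22 of the 28 were tested at a minimum mean of 5 FPKM. The count of genes called over the whole table was 2 at that minimum and 4 with no filter, against 3, and 3 to 14 on leaving out 1 library. Samples of both genotypes carry replicate numbers 1 to 3, and same-numbered libraries deviated together with correlations of -0.01, -0.07 and 0.19. The 2 libraries numbered 3 each correlated best with the other. Such correlations cannot show whether same-numbered libraries share more than a number. With the replicate block 2 genes were called over the table and 0 sterol genes. Not every library correlated best with its own number, the highest correlation, 0.21, being that of knock-in replicate 2 with wild-type replicate 1. Median-of-ratios scaling moved the median of all genes to 0.0081, from -0.01, and turned Insig2 to 0.0223 and Soat1 to 0.0128. Quantile normalization turned them to 0.0123 and 0.0188. On leaving out 1 library the log2 difference changed sign for some genes. The lowest and highest values were -0.12 and 0.11 for Mvk, -0.0209 and 0.264 for Pmvk, -0.20 and 0.0569 for Mvd, -0.21 and 0.0075 for Fdps, -0.19 and 0.10 for Lss, and -0.0246 and 0.456 for Msmo1. They were -0.145 and 0.0048 for Ebp, -0.015 and 0.0921 for Sc5d, -0.0629 and 0.0072 for Srebf2, -0.0478 and 0.0679 for Insig2, -0.0147 and 0.0676 for Stard4, -0.0121 and 0.0643 for Abcg1, -0.0483 and 0.0172 for Soat1, and -0.11 and 0.0012 for Scd2. The cause was not tested. Scd3 ran from -1.45 to -0.70. The depth of the libraries is unknown, so its part in the spread was not tested.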
